A study of Mus musculus with 8 samples.

Results

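Complement is a cascade of plasma and cell surface proteins that tags and lyses microbes, and 9 of its genes were followed here in J774A.1, a macrophage line derived from a mouse tumour. The genes are C1qa, C1qb and C1qc, C3, Cfb, Cfp, C3ar1, Cd55 and Serping1. They were chosen by symbol, with earlier results of these data known. They stand for the start of the cascade, its centre, its amplification loop, a receptor and a pair of inhibitors. All 9 were found once each among the 55487 genes of the deposited table. RNA was sequenced from 4 libraries of cells given LPS (1 μg/mL), a component of bacterial outer membranes to which macrophages respond, and from 4 libraries of cells given the same LPS with UDCA (1 mM), a secondary bile acid. Cells were collected after 24 h. Every library analysed here had received LPS, so the values compare levels under LPS and not its induction. Levels are TPM, in which the reads of a gene are divided by its length and scaled to the library, so genes can be compared within a library. The sources do not say whether the 4 libraries of a group came from separate experiments, so p-values measure the spread between these libraries.

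Liver makes most plasma complement, but tissue macrophages are known producers of C1q, the recognition protein of the classical pathway, and of properdin. Once C3 is cleaved, its larger fragment coats a target and binds factor B to form a convertase that cleaves more C3, and properdin holds that convertase together. The smaller fragment, C3a, signals through the C3a receptor, while CD55 takes convertases apart on host cells and C1 inhibitor blocks the proteases that C1q carries.

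In J774A.1 cells, 3 of the 9 genes reached a mean of 1 TPM over the 8 libraries, the level set for testing. They were Cfp, which encodes properdin, C3ar1, which encodes the C3a receptor, and C3. With LPS + UDCA, Cfp RNA fell to 0.309 of its LPS level, C3 RNA rose 2.42-fold from a low level, and C3ar1 RNA rose 1.35-fold. The other 6 genes stayed under 1 TPM in every library. C3 was called higher and Cfp lower, which required both a 2-fold difference and a Benjamini-Hochberg adjusted p below 0.05 in limma, which fits each of the 11796 genes tested and shares their variances. That is 2 of the 3 tested members, where 17.1% of all genes tested were called, 8.71% higher and 8.44% lower. Without a fold minimum all 3 passed, 2 higher and 1 lower, as did 72.5% of all genes tested, 40.2% higher and 32.3% lower. The groups did not overlap in any of the 3, as in 66.8% of all genes tested.

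**Figure D1:**
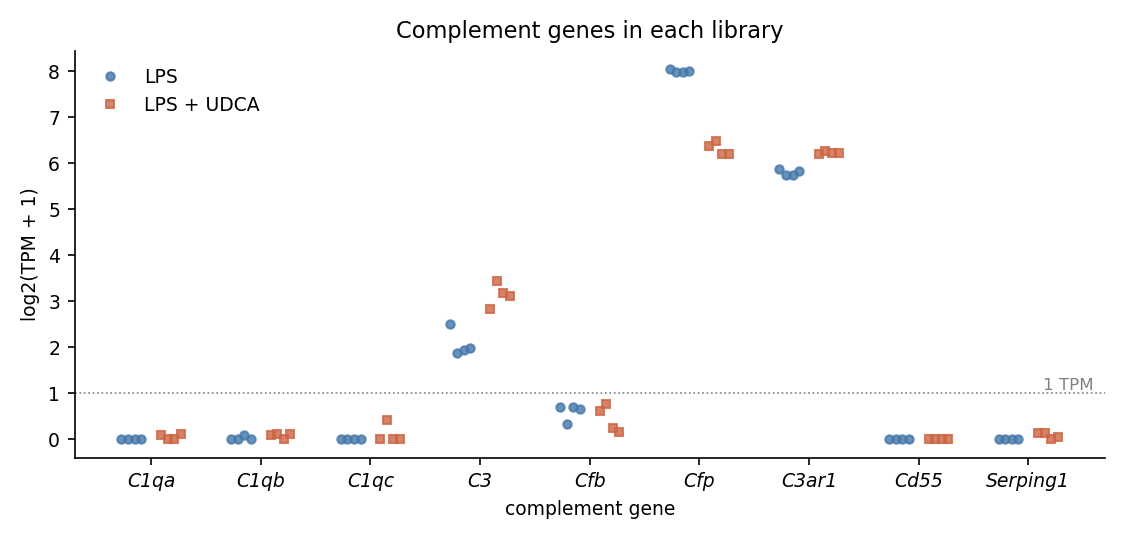
The level of each of the 9 complement genes as log2(TPM + 1), with 4 LPS libraries (circles) and 4 LPS + UDCA libraries (squares) per gene and a dotted line at 1 TPM. C3, Cfp and C3ar1 lie above the line in all 8 libraries, and the other 6 genes lie below it.

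The bases just upstream of the genes with measurable RNA are shown for reference beside their RNA levels. RefSeq promoter windows of the GRCm38.p6 reference assembly, not of the cell line itself, were found for 6 members, and the part before the gene start is printed 5′ to 3′ on the gene's strand. Capitals mark matches on either strand to the NF-κB pattern (GGG, any 5 bases, then CC), TTGCNNAA (C/EBP), TGANTCA (AP-1) or TGCTGA (MAF). All 3 genes lie on the minus strand, and the stretches printed are chr17:57228137-57228386 for C3, chrX:20931556-20931805 for Cfp and chr6:122856162-122856407 for C3ar1.
C3: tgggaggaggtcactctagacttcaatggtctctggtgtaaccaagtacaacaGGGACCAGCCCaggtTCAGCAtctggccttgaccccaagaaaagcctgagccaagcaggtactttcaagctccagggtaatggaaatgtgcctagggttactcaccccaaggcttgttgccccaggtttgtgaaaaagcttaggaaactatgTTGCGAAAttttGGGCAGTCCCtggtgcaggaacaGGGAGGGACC
Cfp: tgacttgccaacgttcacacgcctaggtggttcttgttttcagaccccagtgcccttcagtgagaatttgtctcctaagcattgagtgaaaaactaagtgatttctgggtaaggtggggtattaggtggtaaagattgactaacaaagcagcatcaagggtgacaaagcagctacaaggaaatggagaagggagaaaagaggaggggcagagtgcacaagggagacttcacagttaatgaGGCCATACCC
C3ar1: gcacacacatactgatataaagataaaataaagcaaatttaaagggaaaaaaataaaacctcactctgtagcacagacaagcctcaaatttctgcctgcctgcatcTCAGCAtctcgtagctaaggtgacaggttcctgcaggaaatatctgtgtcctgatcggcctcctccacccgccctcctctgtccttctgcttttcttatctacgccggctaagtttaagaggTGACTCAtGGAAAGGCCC
Positions are counted back from the RefSeq start, and the 4 bases next to that start are left out for C3ar1 because the GENCODE annotation places them in its first exon. Among the 6 members with a window of 250 bases, a C/EBP match was found in C3 alone, as TTGCGAAA from 45 to 38 bases before the start, and such a match occurs in 9.56% of the 32851 promoter windows of this length. An AP-1 match was found in C3ar1 alone, as TGACTCA from 22 to 16 bases before the start, against 6.75% of windows. The AP-1 pattern was added after values or sequences had been seen, so that match is no separate result. The NF-κB pattern was met in all 6 members, but 45.8% of windows hold it. In C1qc the matches lie 41 to 31 bases before the RefSeq start, among 151 bases that GENCODE places inside the gene. The NF-κB match in the Cfp window, GGCCATACCC, takes up the last 10 bases before the start. A PU.1 core, GAGGAA, was present in C1qb and C1qc and in 23.3% of windows, TGCTGA in C1qb, C3, C3ar1 and Cd55 and in 16.1% of windows, and TGACG in C1qb and Cd55 and in 17.8% of windows. No member matched the interferon-response core (GAAA, any 2 bases, then GAAA), TTCNNNGAA, its form with a spacer of 4 bases, CACGTG or the IR1 element, which 2.98%, 7.02%, 5.85%, 6.02% and 0.575% of windows hold. Overlapping matches were counted, and a match is a run of letters and not a bound site.

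C3 encodes the protein on which the classical, lectin and alternative pathways converge. The gene (ENSMUSG00000024164) lies on chromosome 17 from 57203970 to 57228136 of GRCm38. Its RNA stood at 4.65, 2.65, 2.86 and 2.94 TPM in LPS replicates 1 to 4. In LPS + UDCA replicates 1 to 4 it stood at 6.12, 9.95, 8.04 and 7.64 TPM. Every library with UDCA was above every library without it, and LPS replicate 1 stood apart from the other LPS libraries, 65.1% above their mean. The group means were 3.28 ± 0.925 TPM (SD, n = 4) and 7.94 ± 1.58 TPM, a ratio of 2.42. On the log2(TPM + 1) scale, which understates changes at low TPM, C3 rose by 1.07 ± 0.17 (SE, limma adjusted p = 0.00034). An exact 2-sided permutation test over the 70 arrangements of the libraries gave p = 0.029, the smallest that this design allows. The fold lay near the minimum of 2, and the call was lost without LPS + UDCA replicate 2 (log2 fold change 0.97) and with quantile normalization (0.99), although the adjusted p from limma stayed under 0.05 in both. By its mean over all libraries C3 ranked 8644 of the 11796 genes tested.

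Cfp encodes properdin, which stabilises the C3 convertase of the alternative pathway. The gene (ENSMUSG00000001128) lies on chromosome X from 20925454 to 20931555. It was the most abundant of the 9 members, at rank 734 of the genes tested. LPS replicates 1 to 4 had 263.7, 252.49, 253.54 and 256.65 TPM. LPS + UDCA replicates 1 to 4 had 82.27, 88.29, 72.93 and 73.29 TPM. The groups were far apart against their spread, with means of 256.6 ± 5.06 TPM (SD, n = 4) and 79.2 ± 7.45 TPM. The mean was thus 3.24-fold lower with LPS + UDCA, with a log2 fold change of -1.69 ± 0.06 (SE, limma adjusted p = 3.3e-08). The exact permutation test gave p = 0.029. None of the 31-base words of the Cfp transcripts occurs in a transcript of another annotated gene, and the same holds for C3. In bulk RNA, fewer cells that carry a transcript and less of it per cell cannot be told apart.

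C3ar1 encodes the G protein-coupled receptor for C3a. The gene (ENSMUSG00000040552) lies on chromosome 6 from 122847138 to 122856161. Its RNA was measured at 57.98, 52.97, 52.47 and 55.89 TPM in LPS replicates 1 to 4. With UDCA added it was 72.45, 76.1, 74.08 and 73.96 TPM. The groups did not overlap, and the rise was small but well outside the spread. The means were 54.8 ± 2.59 TPM (SD, n = 4) and 74.1 ± 1.498 TPM, with a log2 fold change of 0.43 ± 0.04 (SE, limma adjusted p = 1.6e-05), which is under the fold minimum. Of its 31-base words, 0.493% occur in another gene.

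**Figure D2:**
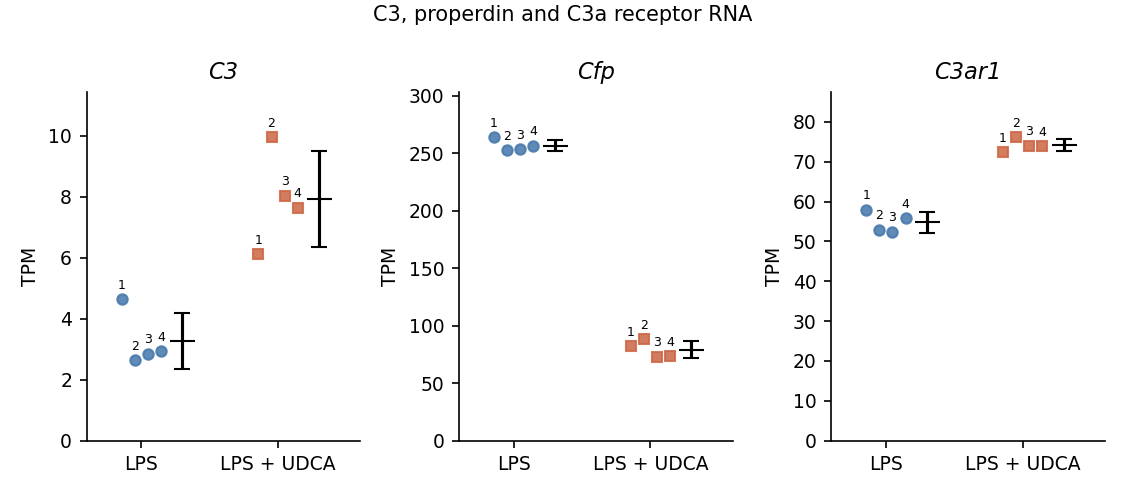
TPM of C3, Cfp and C3ar1 in each library, numbered by replicate, with the group mean and SD (n = 4) as bars beside the points and axes that start at 0. C3 and C3ar1 were higher and Cfp lower in all 4 LPS + UDCA libraries, and LPS replicate 1 is the highest LPS library for all 3 genes.

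The same replicate was the highest of its group for all 3 genes, but the margin differed between the genes. LPS replicate 1 was highest of its group for all 3, by 65.1% over the mean of the other LPS libraries for C3, 3.73% for Cfp and 7.82% for C3ar1. LPS + UDCA replicate 2 was highest of its group for all 3, by 36.9%, 15.9% and 3.54%. Levels within one library do not depend on the scaling between libraries. Properdin RNA was 4.55 to 4.83 times C3a receptor RNA in the LPS libraries and 0.985 to 1.16 times in the LPS + UDCA libraries. It was 56.7 to 95.3 times C3 RNA with LPS and 8.87 to 13.4 times with LPS + UDCA. Properdin RNA thus remained above C3 RNA in all 8 libraries, by a smaller margin with UDCA.

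The C1q chains, whose trimers form the stalks and heads that bind antibody complexes and dying cells, were at or close to 0. C1qa, C1qc and C1qb lie side by side on chromosome 4, from 136895917 to 136898803, from 136889804 to 136893065 and from 136880129 to 136886187. No LPS library had C1qa above 0, and the LPS + UDCA replicates were listed at 0.07, 0, 0 and 0.08 TPM. C1qb was listed at 0, 0, 0.06 and 0 TPM in the LPS libraries and at 0.06, 0.08, 0 and 0.08 TPM with UDCA. C1qc was above 0 in 1 library, LPS + UDCA replicate 2, at 0.34 TPM. The 3 chains summed to at most 0.06 TPM in an LPS library and at most 0.42 TPM where UDCA was added (exact permutation test, 2-sided p = 0.14). At these levels no difference was detectable, and a listed 0 does not show that a gene was silent. None of the 31-base words of the 3 genes occurs in another annotated gene.

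Factor B, the protease of the alternative pathway convertase, was barely detected. Cfb, on chromosome 17 from 34856374 to 34862518, had 0.62, 0.26, 0.64 and 0.59 TPM in LPS replicates 1 to 4. In LPS + UDCA replicates 1 to 4 it had 0.53, 0.71, 0.19 and 0.11 TPM. The groups overlapped (exact permutation test, 2-sided p = 0.34). The value is uncertain, since 75.5% of the 31-base words of Cfb also occur in Gm20547, a gene annotated across Cfb and part of its neighbour C2, which was listed at no more than 0.03 TPM. No microRNA or antisense gene with a value above 0 overlaps a member.

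The inhibitors among the members were at or close to 0 as well. Cd55, on chromosome 1 from 130439027 to 130462744, was listed at 0 in all 8 libraries. Of its 31-base words, 13.0% occur in other genes, mostly in its neighbour Cd55b, which was also listed at 0 throughout. Serping1, which encodes C1 inhibitor and lies on chromosome 2 from 84765387 to 84775444, was listed at 0 in the 4 LPS libraries. With UDCA it was listed at 0.10, 0.10, 0 and 0.04 TPM in replicates 1 to 4 (exact permutation test, 2-sided p = 0.14). When genes under 1 TPM were included in the fit, none of the 5 members above 0 but under 1 TPM passed an adjusted p of 0.05 from limma (0.081 for Serping1, 0.22 for C1qa, 0.24 for C1qb, 0.44 for C1qc and 0.48 for Cfb).

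The rest of the pathway was taken from a list of 50 complement genes drawn up by role, also with earlier results known. Of these, 17 were listed at 0 in all libraries, 24 were above 0 with a mean under 1 TPM, and 9 were tested. Of the 9, 2 were called lower and none higher past both thresholds, where 8.44% and 8.71% of all genes tested were. Without the fold minimum 4 were lower, 3 higher, and 2 did not pass (limma), beside 32.3% lower and 40.2% higher of all genes tested. Their median log2 fold change was -0.15, beside 0.082 over all genes tested.

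Among the starters of the cascade, Fcna alone was tested. It encodes ficolin A, a lectin that recognises sugars on microbes and works with the MASP proteases. LPS replicates had 10.70, 11.90, 9.48 and 10.99 TPM and LPS + UDCA replicates 3.24, 3.85, 3.10 and 3.95 TPM. The groups did not overlap, and Fcna had a log2 fold change of -1.38 ± 0.10 (SE, limma adjusted p = 1.5e-06). The antisense gene Fcnaos overlaps it and was listed at up to 1.43 TPM, and the use of strand in counting is not given in the sources used here. The protease gene C1ra, named after its values were seen, ran from 0.79 to 1.10 TPM with LPS and from 0.11 to 0.28 TPM with LPS + UDCA, with no overlap. Its mean was under the level set for testing, and in the fit that included such genes its log2 fold change was -0.75 (limma adjusted p = 0.0001). Of its words, 59.6% are shared, mostly with C1rb. C2, the classical pathway counterpart of factor B, ran from 0.21 to 0.84 TPM and from 0.46 to 2.86 TPM in the 2 groups, which overlapped. Its value is uncertain, since 44.4% of the words of C2 are shared, among others with Gm20547 and Zbtb12. Zbtb12 overlaps C2 on the opposite strand and was listed at up to 3.79 TPM. C4b, which encodes the other part of the classical pathway convertase, was under 1 TPM in all libraries. So was C4a, annotated as a processed transcript, which shares 48.3% of the words of C4b.

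Downstream of C3, none of the 7 genes for the terminal components reached a mean of 1 TPM. C9, which forms the pore of the lytic complex, had the highest mean of them and was listed at 0.03 to 0.92 TPM with LPS and at 0 to 0.88 TPM with LPS + UDCA. Cfd, the protease that activates factor B, was listed at 0 in all libraries.

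Of the 16 other inhibitors and regulators, 3 were tested. Cr1l encodes Crry, a rodent membrane protein that blocks C3 convertases, and was the most abundant. It had 58.12, 59.47, 57.68 and 56.61 TPM in LPS replicates 1 to 4 and 107.86, 119.62, 104.13 and 106.61 TPM in LPS + UDCA replicates 1 to 4. Every library with UDCA was higher, by a ratio of means of 1.89 and a log2 fold change of 0.90 ± 0.05 (SE, limma adjusted p = 3e-07), just under the fold minimum. Of its words, 7.38% occur in other genes, among them the pseudogene Crry-ps. Clu, which encodes clusterin, a soluble inhibitor of the lytic complex, fell from 25.1 ± 0.355 to 17.0 ± 0.644 TPM (SD, n = 4, adjusted p = 5.9e-06 from limma). Cd46, named after its values were seen, encodes a cofactor for C3b cleavage and ran from 0.08 to 0.09 TPM with LPS and from 0.26 to 0.56 TPM with LPS + UDCA. It too was tested only in the fit that included genes under 1 TPM, with a log2 fold change of 0.33 (limma adjusted p = 0.0034). Of the words of Cd46, 13.8% are shared, among others with A330023F24Rik. That gene overlaps it on the opposite strand and was listed at up to 0.33 TPM, so the value of Cd46 is uncertain. In that fit only C1ra and Cd46 passed without a fold minimum among the 24 other complement genes above 0 with a mean under 1 TPM. Over all 23729 genes 40.6% did. Cd59a, which encodes a membrane inhibitor of the lytic complex, had 6.11 ± 0.708 and 5.44 ± 1.003 TPM (adjusted p = 0.31 from limma).

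Among receptors and binding proteins, 5 of 10 were tested. Itgam encodes the α chain and Itgb2 the β chain of complement receptor 3, which takes up targets coated with C3 fragments. Itgam was measured at 186.79, 173.22, 161.67 and 183.33 TPM in LPS replicates 1 to 4. With UDCA added, the replicates had 21.97, 26.28, 20.43 and 22.14 TPM, all far below the LPS libraries. Its log2 fold change of -2.91 ± 0.08 (SE, limma adjusted p = 5.2e-09) was the lowest of the 12 complement genes tested. Itgb2 moved the other way, from 92.4 ± 2.25 to 117.1 ± 6.86 TPM (SD, n = 4, adjusted p = 0.00014 from limma). The ratio of the α to the β chain RNA was between 1.76 and 2.02 in the LPS libraries and between 0.177 and 0.21 in the LPS + UDCA libraries. Of the words of Itgam, 68.3% occur in other genes, mostly in Gm49368, which overlaps it on the same strand and fell as well (from a mean of 15.6 to 2.62 TPM). The sum of both genes fell from 191.8 to 25.3 TPM.

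C5ar1 encodes the receptor for C5a, the other anaphylatoxin that the cascade releases. It had 44.9 ± 4.09 and 46.8 ± 3.87 TPM (SD, n = 4), with a log2 fold change of 0.06 ± 0.08 (SE, limma adjusted p = 0.52), and the groups overlapped. The sign of this value turned with median-of-ratios scaling (-0.019). Calr and C1qbp encode abundant proteins with other main roles, a chaperone and a mitochondrial protein, that can bind C1q. Calr rose from 634.7 ± 17.4 to 1188 ± 42.7 TPM (log2 fold change 0.90, adjusted p = 4e-08 from limma), and C1qbp fell from 263.0 ± 6.47 to 222.4 ± 2.95 TPM (log2 fold change -0.24, adjusted p = 6.4e-05 from limma).

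**Figure D3:**
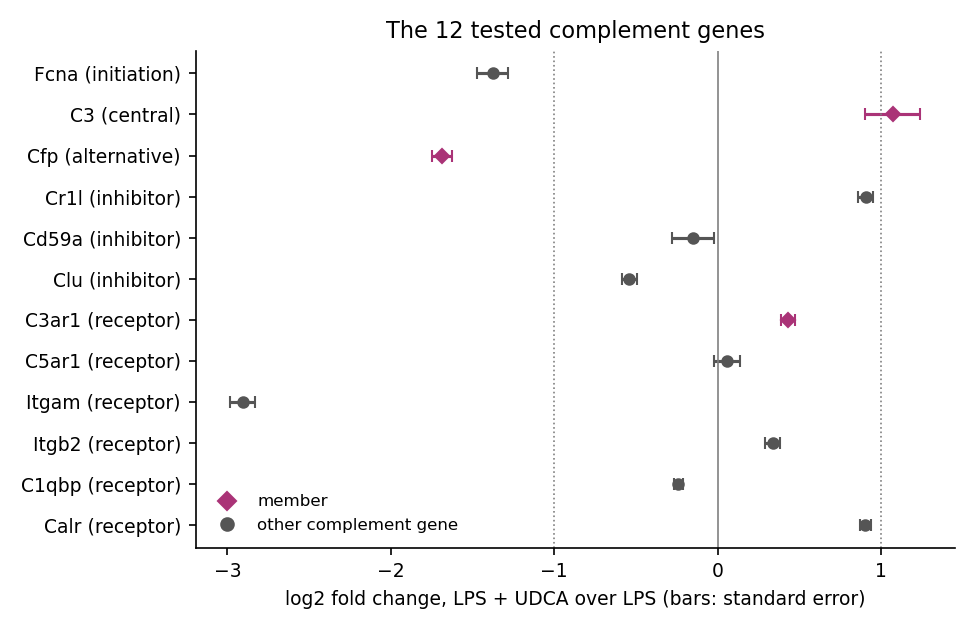
Log2 fold change of the 12 complement genes that were tested, LPS + UDCA over LPS on the log2(TPM + 1) scale, with standard errors as bars, diamonds for members and circles for the other genes, and dotted lines at a fold change of 2. Itgam, Cfp and Fcna lie below the lower line, C3 lies just above the upper one, and Cr1l and Calr lie just under it.

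The genes most like Cfp and C3ar1 were found by the root mean square difference over the 8 libraries in log2(TPM + 1), each gene taken relative to its LPS mean, among the 7072 genes averaging 10 TPM or more. For Cfp they were Tnf (0.029), Ppt1 (0.060) and Twf2 (0.062). Tnf, the gene of the cytokine TNF-α, went from 664.4 ± 4.35 to 205.8 ± 16.8 TPM (SD, n = 4), with a log2 fold change of -1.69 beside -1.69 for Cfp. For C3ar1 they were Nek9 (0.018), Cd80 (0.025) and Cdc42 (0.026), with log2 fold changes of 0.45, 0.46 and 0.42. Close fold changes follow from the way these genes were chosen and are no separate result. C3 was below the level set for this comparison.

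**Figure D4:**
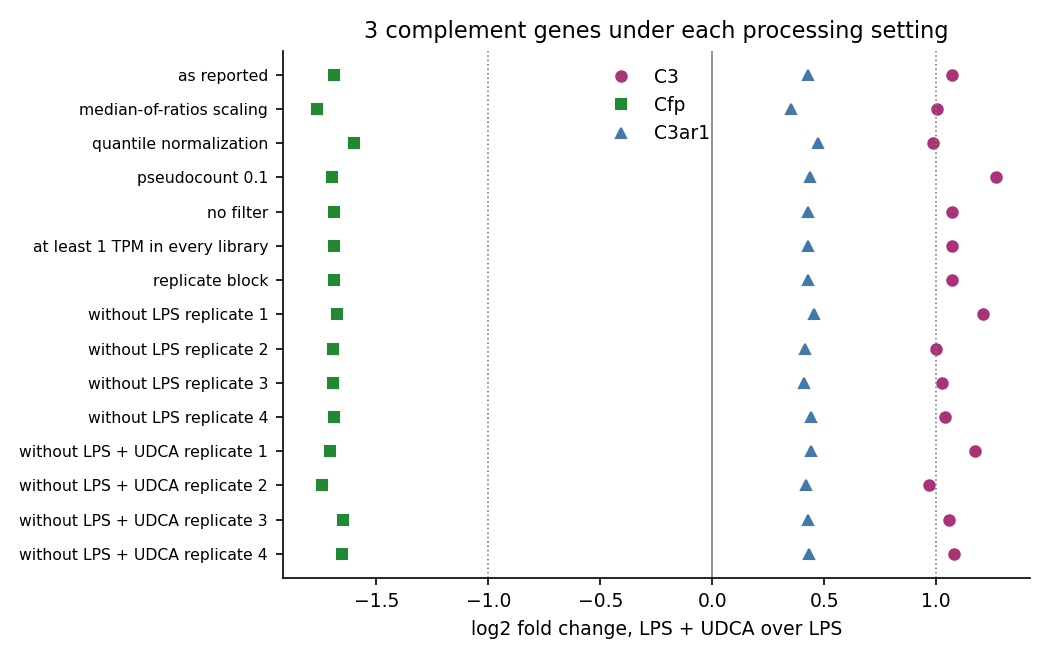
Log2 fold change, LPS + UDCA over LPS, of C3 (circles), Cfp (squares) and C3ar1 (triangles) as reported and under each other processing setting, with dotted lines at a fold change of 2. Cfp lies between -1.77 and -1.60 and C3ar1 between 0.35 and 0.47, while C3 runs from 0.97 to 1.27 and crosses the line.

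The groups also differed across the whole table. The TPM total of a library was 973190 to 977485 with LPS and lower, at 958918 to 962737, where UDCA was added. Between 11412 and 11517 genes reached 1 TPM with LPS, against 11648 to 11730 with UDCA added, and the groups overlapped in neither measure. With median-of-ratios scaling the log2 fold changes of C3ar1, Itgb2 and C1qbp were 0.35, 0.26 and -0.32, beside 0.43, 0.34 and -0.24 as reported. The part in the results of the differences in TPM total and in genes at 1 TPM was not tested. TPM keeps no number of reads, so depth is unknown and no counting error can be given. Of 12 macrophage markers, 10 had a mean of at least 1 TPM, while Mertk was listed at 0 throughout and Mrc1 was close to 0. Their summed TPM, Itgam included, was 4244 to 4476 with LPS and 2083 to 2340 with LPS + UDCA, a fall that moved with that of Cfp and Itgam, and its part in those results was not tested. It was uneven, since Lyz2 had 1988 ± 93.8 and 435.5 ± 19.97 TPM (SD, n = 4) whereas Adgre1 rose from 46.6 ± 3.97 to 114.1 ± 8.24 TPM. Of 5 hepatocyte, 6 fibroblast, 6 lymphocyte and 6 epithelial or endothelial markers, none had a mean of 1 TPM. Among 6 neutrophil markers, S100a8 and S100a9 did, with 3 others at 0 in every library. The summed neutrophil list was 18.6 to 25.4 TPM with LPS and 2.72 to 9.03 TPM with LPS + UDCA.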

How the data were processed

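J774A.1 cells treated for 24 h with LPS or with LPS + UDCA were sequenced, with 4 libraries per group named in the sample labels. The authors deposited TPM per gene, kept to 2 decimals. The submitters' processing notes name Bowtie 0.12.2 and mm10 (GRCm38), while the counting program, annotation and strand setting are not given in the sources used here. The log2 of TPM plus 1 was modelled in limma 3.58.1 (R 4.3.3, lmFit, then eBayes with trend) for genes averaging 1 TPM or more. A call needed a 2-fold change with a Benjamini-Hochberg FDR below 0.05. A member under that mean was given by its values, with an exact permutation test (scipy 1.17.1). A planned contrast of Cfb with Serping1 and of C3 with Cd55 was not formed, because both inhibitors were under 1 TPM in every library. The members and gene lists were chosen with earlier results of these data known. Named genes were the members, listed genes past both thresholds, the most abundant of each role, overlapping genes and the 3 genes most like a member, and the AP-1 motif and other names were added after values or sequences had been seen. Positions and shared 31-base words on either strand are from GENCODE M21. On simulated data the fit called 64 of 67 genes given a log2 effect of 1.2 and 66 of 66 given an effect of 2. There were 4 false calls among 11596 unchanged genes. No effect under 1.2 was simulated, so this does not cover an effect the size of that of C3 (1.07). The alternatives tried were other scalings, pseudocounts and filters, a replicate block and leaving out each library. Tables and plots were made in Python 3.11.15 with pandas 2.3.3 and matplotlib 3.10.9. Depth is unknown for TPM.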

Additional observations from a re-analysis of the deposited data

Results flagged for a closer look

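Libraries standing apart were sought in the 12 complement genes tested, by comparing the distance from the highest or lowest replicate to the next with the spread of its group (Dixon's test at its 95% critical value). Of 24 groups of values 2 passed, where chance gives 1.2. For C3, LPS replicate 1 was highest, at 4.65 TPM (distance over range 0.855), and without that library the log2 fold change of C3 was 1.21. For Calr, LPS replicate 1 was also highest, at 660.54 TPM.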

How the results depend on the processing

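Cfp stayed called lower and C3ar1 stayed higher but under the fold minimum in every alternative run. For C3 the log2 fold change ran from 0.97 to 1.27. It was 0.99 with quantile normalization and from 0.97 to 1.21 with one library left out, so that the number of members called higher was 0 with quantile normalization and 0 to 1 with one library left out. Among the runs with one library left out, only the removal of LPS + UDCA replicate 2 ended the call. Without the fold minimum 2 members and 3 other complement genes were called higher, and 4 other complement genes lower, and over all genes 4741 were higher and 3807 lower, against 1028 and 995. Quantile normalization also took Calr past the fold minimum (log2 fold change 1.01), so that 1 other complement gene was called higher, and median-of-ratios scaling turned the sign of C5ar1 (-0.019). The groups share replicate numbers, but deviations from the group means correlated by 0.12, 0.12, -0.035 and 0.15 in the same-numbered pairs of libraries 1 to 4 (mean 0.088) and by -0.14 to 0.16 in the others (mean -0.029). Pairing was taken to require over 0.1 in every pair, so the libraries were not treated as paired, and whether some share an origin is not known. With the replicate block the log2 fold changes of C3, Cfp and C3ar1 were 1.07, -1.69 and 0.43, and no call on a complement gene changed. The difference of the summed C1q chains, 0.16 TPM, ran from 0.082 to 0.22 TPM with one library left out, where 3 against 4 libraries cannot give an exact permutation p below 0.057. Alternatives for the contrast of Cfb with Serping1 and of C3 with Cd55 were not run, since the contrast was not formed.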
